A study of Xenopus laevis with 90 samples.

Results

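The Notch pathway and *hes* genes of the *Xenopus laevis* embryo were followed through zygotic genome activation (ZGA), when transcription from the embryonic genome starts. They were chosen by symbol, as the entries of the expression tables that start with *notch*, *dll*, *dlc*, *jag*, *hes* or *hey* and a digit, *lfng*, *mfng*, *rfng*, *nrarp*, *rbpj*, *mib*, *maml* or *dtx*. The rule took 81 of the 37504 genes measured in embryos of frog 1 and the same 81 of the 36504 measured in frog 2, and no measured value entered it. Of these, 3 carry such a prefix without belonging to the pathway (*dlc1.S* and both copies of *jagn1*) and were left out, so that 78 members remained: 6 receptors, 8 ligands, 3 fringe genes, 14 ubiquitin ligases, 8 nuclear factors, *nrarp.S*, and 38 *hes* and *hey* genes. *Xenopus laevis* is allotetraploid, and the suffixes L and S name the copies of a gene on the long and short subgenomes.

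The study sequenced total RNA of 90 pools, each of 3 siblings, with 3 pools for each of 15 groups from each of 2 frogs. Wild type embryos were not injected and received no auxin. Treated embryos received mRNA at the 1-cell stage for wild type Kdm5b (11 ng), which removes methyl groups from lysine 4 of histone H3, for the histone mutant H3.3 with that lysine changed to methionine (345 pg), and for TIR1 (5 ng). Control embryos received the same amounts of mRNA for unmutated H3.3 and for TIR1, and 4 ng for a Kdm5b without catalytic activity. TIR1 is the receptor through which auxin (IAA) removes proteins that carry a degron, here the injected Kdm5b and H3.3 proteins. Injected groups labelled +IAA were given 500 µM auxin from 4.5 hours post fertilization (hpf). This was meant to limit depletion of H3K4 methylation to a window before ZGA. In injected groups labelled -IAA depletion was persistent. The study saw the injected proteins fully degraded within 2 h of auxin, and the 5.5 hpf samples were taken before that time. The 5 conditions were collected at 5.5, 6.5 and 7.5 hpf. The injected Kdm5b is a shortened mouse protein. Its mRNA dose, its catalytic activity and the form of H3.3 differ together between treated and control embryos and cannot be told apart. The study chose the mRNA amounts to give equal levels of the injected proteins before ZGA. The RNA data do not show protein levels. The embryos were sampled whole, so that fewer cells expressing a gene and less RNA per cell cannot be told apart either.

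Notch is a receptor that signals between touching cells. A Delta or Jagged ligand on one cell triggers cleavage of Notch on its neighbour, and the freed intracellular part enters the nucleus, joins the DNA-binding protein Rbpj and a Mastermind (Maml) coactivator, and switches on target genes. The best known targets are *hes* and *hey* genes, which encode basic helix-loop-helix repressors that hold back differentiation, and *nrarp*, an ankyrin repeat protein that dampens the signal. Not every *hes* gene depends on Notch, and in the frog embryo several are used for early patterning of the germ layers and the neural plate.

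Values are in TPM (a length-corrected share of all transcripts), rescaled between the libraries of a frog. A member was tested in a frog where it reached 1 TPM in at least 3 of its 45 libraries, and was called where the adjusted p of limma was under 0.05. A member is described as rising or falling in both frogs where it was called in the same direction in each. The frogs are the biological and the pools the technical replicates of the study, so p-values measure the spread between pools of siblings. TPM keep no read counts, so the depth behind a value is unknown. Residual ribosomal RNA took 4.04 to 37.4% of the TPM in frog 1 and 1.77 to 15.6% in frog 2. The frog globin gene *hbg1.L*, whose untranslated regions the injected mRNA carry, was at most 0.829 TPM in wild type and at least 1844 TPM in injected libraries. Among 8 markers of differentiated tissues, 0 or 1 reached 1 TPM in any group, and the summed level of 11 early zygotic markers went from 4.93 to 30.9 TPM at 5.5 hpf to 368 to 821 TPM at 7.5 hpf.

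Not all members were detected at these stages. Of the 78 members, 50 were tested in frog 1, 49 in frog 2 and 45 in both, while 21 stayed under 1 TPM in each of the 90 libraries. The members below that level in every library included both copies of *notch2* and *jag2*, and *notch4.S*. Both copies of *hes5.1* (also known as esr1) and of *hes5.2* (esr7) were among them too, with at most 0.467 and 0.677 TPM in any library. A set of pathway components was present at 5.5 hpf, the first stage sampled, and several of them changed little by 7.5 hpf on the rescaled values. In wild type, the ligand-activating ubiquitin ligase *mib1.L* averaged 24.8, 26.8 and 26.7 TPM at 5.5, 6.5 and 7.5 hpf in frog 1 and 20.1, 19.9 and 21.8 TPM in frog 2. The Deltex ubiquitin ligase *dtx2.L* averaged 30.1, 34.7 and 34.7 TPM in frog 1 and 30.0, 29.6 and 32.6 TPM in frog 2. Its pools at 7.5 hpf lay above those at 5.5 hpf in both frogs, so its level was not fully constant. The DNA-binding factor *rbpj.L* stood at 23.5, 24.6 and 24.2 TPM in frog 1 and 23.9, 23.1 and 21.9 TPM in frog 2, and neither frog called it between 5.5 and 7.5 hpf (adjusted p = 0.65 and 0.060, limma). The receptors *notch1.S* and *notch3.L* and the coactivator *maml1.L* were also at 16 TPM or more at 5.5 hpf. Both of these receptors rose by 7.5 hpf in both frogs. The 5.5 hpf embryo thus already held RNA of receptors, ligand ligases and nuclear effectors, whereas 28 of the 38 *hes* and *hey* genes were under 1 TPM in both frogs. Of the 38, 9 stayed under 1 TPM in every library, and 6 were at 1 TPM or more at 5.5 hpf in both frogs. The highest of these in wild type was *hes4.S*, at 19.5 TPM in frog 1 and 21.2 TPM in frog 2, and *hey1.L* was at 10.0 and 10.2 TPM.

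**Figure D1:**
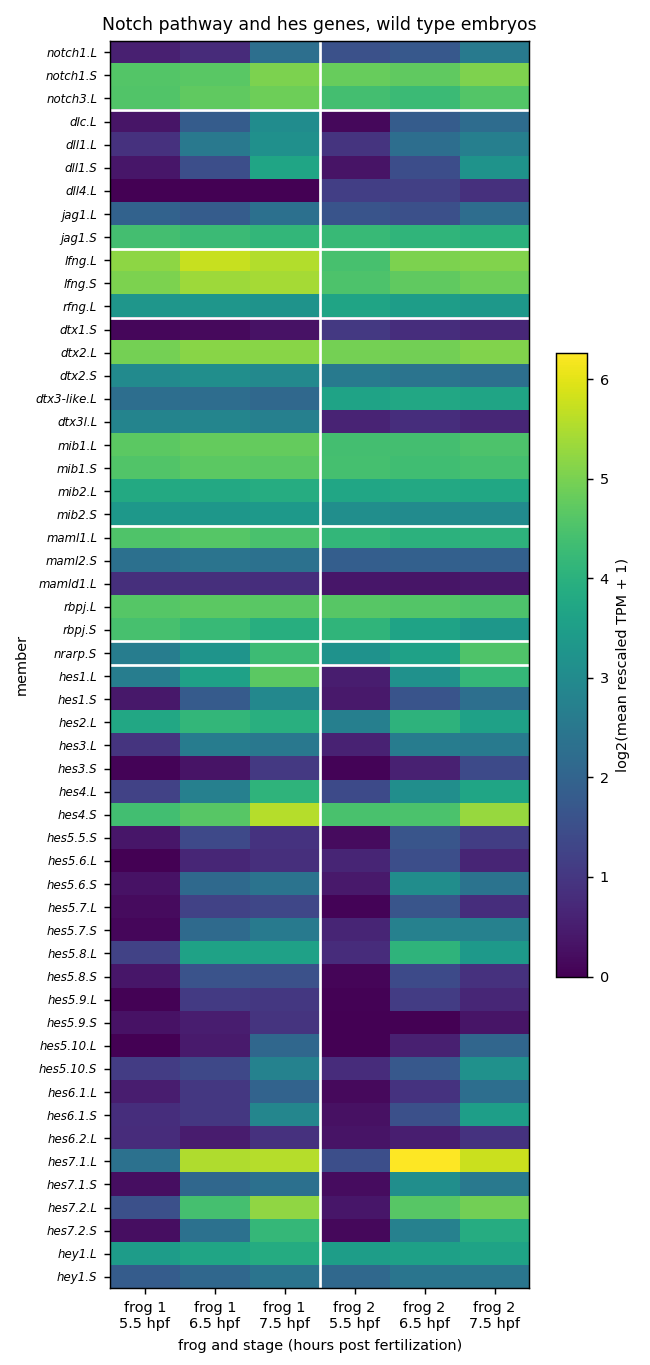
Mean level of the 54 members tested in at least 1 frog, in wild type embryos, as log2(mean rescaled TPM + 1) of 3 pools, with frogs and stages in columns and members in rows grouped by role (from the top, receptors, ligands, fringe genes, ubiquitin ligases, nuclear factors, *nrarp.S*, *hes* and *hey*). The rows of *mib1.L*, *dtx2.L* and *rbpj.L* keep their colour across stages, while *dll1.S* and *dlc.L* among the ligands brighten and *hes7.1.L* goes from 4.10 to 46.3 TPM in frog 1 and from 1.86 to 53.6 TPM in frog 2.

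Wild type embryos show how the module is switched on. From 5.5 to 7.5 hpf, 30 members rose in both frogs and 2 fell, against 14.0% of the genes tested in both frogs that rose and 13.1% that fell. Among the *hes* and *hey* genes, 20 rose and 0 fell, of 22 tested in both frogs. A member that passed the filter through its later levels alone had to rise. These counts, and the median change of the *hes* and *hey* genes given below, therefore describe the members and are no test of the group. The shift between libraries on the deposited scale moved the split of calls: 34 higher and 2 lower became 44 and 0 in frog 1, and 32 and 5 became 24 and 19 in frog 2, where the median of all genes was 0.39 and -0.69. Of all genes, 21.6% were called higher and 18.1% lower in frog 1, and 24.3% and 22.4% in frog 2, and on the deposited scale 56.2% and 4.28%, and 8.37% and 79.7%. The median change of the *hes* and *hey* genes was 1.65 in frog 1 and 2.03 in frog 2 on the log2(TPM + 1) scale, against 0.02 over all genes tested in each frog. The ubiquitin ligases, in contrast, had medians of 0.06 and 0.01, and 0 of 7 rose or fell in both frogs. Of the nuclear factors, the second *rbpj* copy fell: *rbpj.S* went from 19.7, 20.0 and 22.5 TPM at 5.5 hpf to 13.3, 14.3 and 14.9 TPM at 7.5 hpf in frog 1, and from 15.1, 16.7 and 16.9 to 8.42, 9.21 and 9.50 TPM in frog 2. Its values were known when it was picked for description.

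The rise was followed in 2 steps. Between 5.5 and 6.5 hpf, 19 members rose in both frogs (15 of them *hes* genes) and 0 fell, against 3.25% and 2.28% of all genes. Between 6.5 and 7.5 hpf, 15 rose (8 of them *hes* genes) and 2 fell, against 8.98% and 6.93%. On the deposited scale the calls per frog of the first step went from 23 higher and 0 lower to 47 and 0 in frog 1 and from 26 and 1 to 24 and 17 in frog 2, and those of the second from 17 and 2 to 15 and 9 and from 18 and 7 to 12 and 25. The shares of all genes called higher and lower were 7.68% and 8.97% in frog 1 and 11.4% and 2054 of 20428 genes in frog 2 for the first step, and 11.5% and 8.19%, and 15.4% and 14.4%, for the second. On the deposited scale they were 75.8% and 1.03%, and 5.33% and 64.4%, for the first step, and 7.58% and 26.2%, and 6.62% and 66.8%, for the second. Counting calls in both frogs on the rescaled values, 7 rose in both steps, 12 in the first step and not in the second, and 8 in the second and not in the first. The genes called in the first step and not in the second included *hes1.S*, *hes3.L*, both copies of *hes7.1*, and *hes5.6.S*, *hes5.7.S* and *hes5.8.L* of the *hes5* array. Those called in the second and not in the first included both copies of *hes5.10*, *hes6.1.S*, *hes4.S*, *notch1.L*, *notch1.S* and *nrarp.S*. A missing call does not show that a gene stayed level. In both frogs all 7.5 hpf pools of *hes1.S* lay above all 6.5 hpf pools. All 6.5 hpf pools of *nrarp.S* lay above all 5.5 hpf pools in both frogs. The difference in timing between genes was not itself tested. The limit set by the filter holds for the counts of these steps too, and they are no test of the group.

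The *hes* gene with the highest wild type level at 6.5 hpf was *hes7.1.L* (gene 398267, chromosome 3L, 153414972 to 153417163 in assembly Xenopus_laevis_v10.1), known as XHR1 and used in the frog neural plate at the midbrain-hindbrain boundary. Its wild type pools held 3.65, 3.71 and 4.93 TPM at 5.5 hpf, 41.4, 44.4 and 47.9 TPM at 6.5 hpf and 43.1, 44.1 and 51.7 TPM at 7.5 hpf in frog 1. In frog 2 they held 1.57, 1.65 and 2.36 TPM, then 60.9, 77.9 and 89.1 TPM, then 42.2, 49.0 and 69.6 TPM. The pools of 5.5 hpf did not overlap those of the later stages, and those of 6.5 and 7.5 hpf overlapped in both frogs. The log2 change from 5.5 to 6.5 hpf was 3.17 ± 0.24 (SE, n = 3 pools per stage) in frog 1 and 4.74 ± 0.30 in frog 2 (adjusted p = 3.9e-12 and 6.9e-15, limma). Its neighbour *hes7.2.L* (gene 398355) starts at 153381812 on the same chromosome and continued upward in frog 1, with 17.4, 21.5 and 22.1 TPM at 6.5 hpf and 35.3, 36.0 and 38.3 TPM at 7.5 hpf. In frog 2 it held 21.6, 23.2 and 26.6 TPM and then 26.5, 28.8 and 33.2 TPM, and these ranges overlapped. The short copy *hes7.2.S* rose in both steps in both frogs, to 13.2, 16.9 and 20.8 TPM in frog 1 and 12.7, 13.0 and 15.2 TPM in frog 2 at 7.5 hpf.

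The *hes5* genes lie in a row. On chromosome 7L, *hes5.3.L* to *hes5.10.L* take up 104019671 to 104122090, and on 7S their counterparts take up 86958724 to 87059343, 8 genes in 102 and 101 kb with 0 other annotated genes between them. These genes encode enhancer of split-related repressors. In each array 5 of the 8 genes reached a mean of 1 TPM in wild type in at least 1 frog, and the first of the row, *hes5.3*, did not on either chromosome. *hes5.8.L* was the most abundant of the L array, with 9.52, 11.2 and 12.7 TPM at 6.5 hpf in frog 1 and 12.1, 15.4 and 19.7 TPM in frog 2. At 7.5 hpf it held 7.30, 12.7 and 12.8 TPM and 7.86, 9.71 and 10.8 TPM. Its pools overlapped between these stages in frog 1 and did not in frog 2, where it fell (log2 change -0.67 ± 0.19, adjusted p = 0.0078, limma). *hes5.6.S* was likewise lower at 7.5 hpf in frog 2, from 6.33, 7.82 and 8.14 to 3.76, 4.13 and 4.68 TPM. The last gene of the row behaved otherwise. *hes5.10.L*, also known as esr6e, was listed at 0 in all 6 wild type pools at 5.5 hpf, reached at most 0.712 TPM at 6.5 hpf, and held 2.78, 2.80 and 4.28 TPM in frog 1 and 2.94, 3.22 and 3.49 TPM in frog 2 at 7.5 hpf. The sequences of these genes were not compared, so whether they share reads, and how such reads were divided among them, is uncertain.

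**Figure D2:**
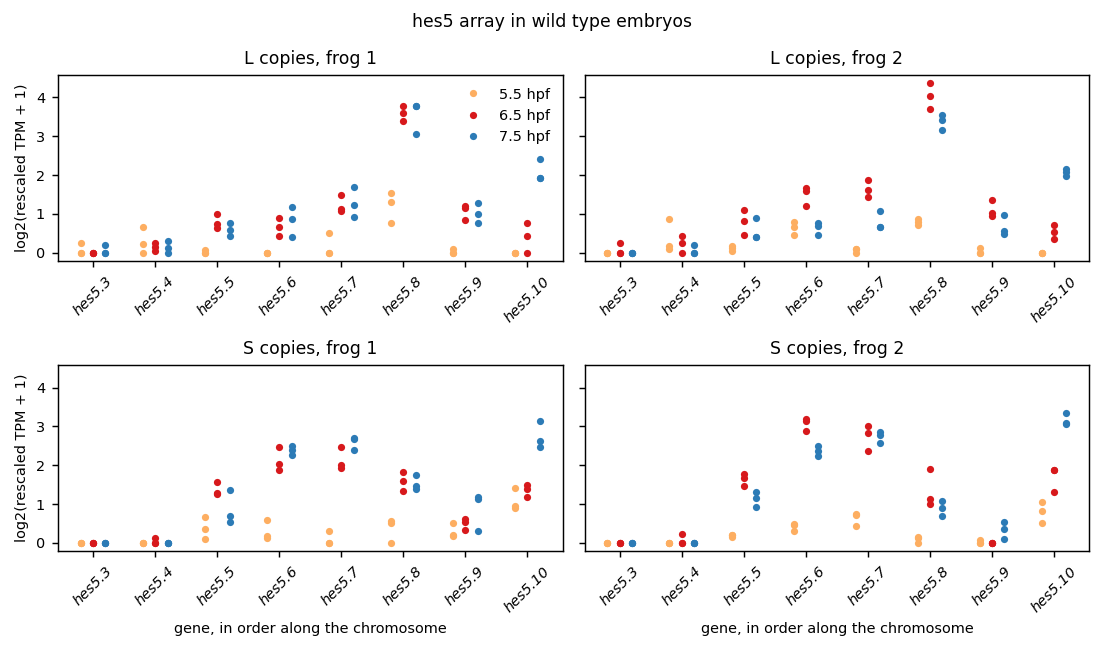
Level of the 8 *hes5* genes of each array in wild type embryos, as log2(rescaled TPM + 1), in order along the chromosome, with 1 point per pool and a colour per stage. At 6.5 hpf the L array was led by *hes5.8.L* and the S array by *hes5.6.S* and *hes5.7.S*, while *hes5.10.L* was listed at 0 at 5.5 hpf and above 2.7 TPM at 7.5 hpf.

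The remaining *hes* genes differed in the step at which they were called in both frogs, and *hes1.L* and *hes4.L* were called in both steps. *hes1.L* (hairy1) held 3.09, 6.34 and 6.52 TPM at 5.5 hpf in frog 1 and 0.170, 0.527 and 0.575 TPM in frog 2, and reached 23.1, 23.2 and 28.4 TPM and 15.3, 16.3 and 19.9 TPM at 7.5 hpf. *hes4.L* (hairy2), which acts in the frog organizer and neural crest, went from 1.2997, 1.39 and 1.39 to 15.9, 15.9 and 16.0 TPM in frog 1 and from 1.299, 1.76 and 1.94 to 9.45, 11.6 and 14.4 TPM in frog 2. In all 4 series the pools of 5.5 and 7.5 hpf did not overlap. *hes6.1.S* rose mainly after 6.5 hpf, from 0.906, 0.999 and 1.12 TPM to 5.51, 6.08 and 7.45 TPM in frog 1 and from 1.31, 1.81 and 2.59 to 8.77, 10.0 and 12.7 TPM in frog 2. Hes6 differs from its relatives in that, in the mouse, it opposes Hes1 and favours differentiation. *hes3.L* reached 4.58, 5.01 and 5.94 TPM at 6.5 hpf in frog 1 and 4.34, 4.35 and 6.99 TPM in frog 2, and its log2 change from 6.5 to 7.5 hpf was -0.11 ± 0.23 and -0.02 ± 0.20 (adjusted p = 0.83 and 0.95, limma).

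Of the ligands tested in both frogs, 4 rose and 1 fell from 5.5 to 7.5 hpf, and all 3 tested receptors rose. Of all genes, 14.0% rose and 13.1% fell in both frogs. These counts are on the rescaled values, and the limit set by the filter holds for them too. *dll1.S* (gene 108717842, chromosome 5S, 41704534 to 41712933), which encodes a Delta ligand, went from 0.225, 0.290 and 0.405 TPM at 5.5 hpf to 1.69, 1.84 and 2.00 TPM at 6.5 hpf and 10.6, 12.3 and 12.9 TPM at 7.5 hpf in frog 1. In frog 2 it went from 0.231, 0.259 and 0.298 to 1.67, 1.85 and 1.88 and then 7.28, 7.45 and 10.098 TPM. Its log2 change over the 2 hours was 3.30 ± 0.15 and 2.86 ± 0.11 (adjusted p = 3.2e-19 and 1.6e-21, limma). *dll1.L* (chromosome 5L, 51449328 to 51457724) rose by 2.26 and 1.78, and the second Delta gene *dlc.L* by 2.71 and 2.09. The Jagged ligand *jag1.S*, by contrast, stood at 19.2, 19.3 and 21.1 TPM at 5.5 hpf and 15.6, 17.1 and 17.1 TPM at 7.5 hpf in frog 1 and at 15.6, 18.8 and 18.8 and then 14.4, 15.0 and 15.8 TPM in frog 2. The pools overlapped in frog 2. It fell by 0.24 and 0.22 on the log2 scale, and on the deposited scale the change in frog 1 was 0.17 and not called. The other copy, *jag1.L*, was among the 4 ligands that rose. Its mean went from 2.93 to 3.94 TPM in frog 1 and from 2.08 to 3.75 TPM in frog 2. *notch1.S* went from 22.3, 22.4 and 24.5 to 31.1, 32.2 and 32.3 TPM in frog 1 and from 25.6, 27.5 and 28.1 to 31.1, 32.6 and 33.6 TPM in frog 2, a rise of 0.45 and 0.25 that in frog 2 turned into -0.53 on the deposited scale. *lfng.L*, a fringe glycosyltransferase that alters which ligands Notch answers to, rose by 0.35 and 0.63, and in frog 2 its change was -0.15 on the deposited scale. *nrarp.S* rose from 5.07, 5.40 and 5.45 to 15.0, 19.6 and 21.7 TPM in frog 1 and from 7.80, 8.09 and 8.65 to 21.3, 21.5 and 24.0 TPM in frog 2, with log2 changes of 1.63 ± 0.15 and 1.34 ± 0.16 (adjusted p = 3e-11 and 1.2e-08, limma).

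For several genes the subgenomes contributed unequally, and for many of these alike in both frogs. At 7.5 hpf in wild type, the L copy gave 92.1% of the *hes7.1* RNA in frog 1 and 91.9% in frog 2, and 68.3% and 68.4% of that of *hes7.2*. For *hes4* it gave 25.5% and 23.7%, for *notch1* 11.0% and 13.0%, for *jag1* 19.2% and 19.9%, and for *dll1* 39.7% and 40.0%. Within the arrays the preference changed from gene to gene, with 85.0% and 91.6% from L for *hes5.8* but 15.8% and 12.0% for *hes5.6*. The *mib1* copies were nearly even, at 52.2% and 51.6% from L. The frogs differed for other pairs, such as *maml2* (6.39% and 22.2% from L) and *dtx3l* (98.1% and 78.8%). How reads shared by L and S copies were divided is uncertain. For *dll1* the order of the copies changed with time: the L pools lay above the S pools at 5.5 and 6.5 hpf and below them at 7.5 hpf in both frogs.

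Some members differed between control -IAA and wild type embryos, a comparison called control injection here. It holds injection itself together with the inactive Kdm5b, the unmutated H3.3 and TIR1, and their separate parts were not tested. At 5.5 hpf, 0 members were called in both frogs, and 3 had an unadjusted p under 0.05 in the same direction in both (limma). In frog 1, *dll1.L* was called higher at this stage (log2 change 1.22), and *hes7.1.L* (-1.05) and *hes7.2.L* (-1.18) were called lower. Of all genes in frog 1, 0.564% were called higher and 0.241% lower. In frog 2, 0 members were called. At 6.5 hpf *dll1.L* and *dll1.S* rose and *dlc.L* and *hes7.1.S* fell in both frogs, where 0.549% of all genes rose and 0.0203% fell. The fall of *dlc.L* was called in 4 of 8 alternatives in frog 1 and 5 of 8 in frog 2. At 7.5 hpf both *dll1* copies rose and *hes7.1.S*, *lfng.L* and *nrarp.S* fell, where 1.81% of all genes rose and 0.712% fell. By then *dlc.L* was called higher in frog 1 alone (log2 change 0.51, adjusted p = 0.041, limma), with overlapping pools, where 3.67% of all genes were called higher. *dll1.L* was at 7.66, 7.84 and 8.07 TPM in wild type and 17.3, 18.0 and 18.8 TPM in control embryos of frog 1, and at 5.03, 5.48 and 6.05 against 11.8, 16.3 and 16.6 TPM in frog 2. Its log2 change was 1.101 ± 0.11 and 1.27 ± 0.12 (adjusted p = 3e-09 and 2.8e-09, limma), and it was called in all 8 alternatives in each frog. Both copies stood apart in all injected groups: at 6.5 and 7.5 hpf, all 12 injected pools of each frog lay above the 3 wild type pools, against 0.794% and 1.73% of all genes.

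The feedback gene moved the other way. *nrarp.S* was at 15.0, 19.6 and 21.7 TPM in wild type and 8.99, 9.36 and 13.7 TPM in control -IAA embryos of frog 1 at 7.5 hpf, and at 21.3, 21.5 and 24.0 against 11.8, 11.8 and 18.3 TPM in frog 2. The pools did not overlap, and the log2 change was -0.77 ± 0.15 and -0.66 ± 0.16 (adjusted p = 0.00034 and 0.0093, limma). *lfng.L* went from 41.6, 45.5 and 50.3 to 34.0, 34.9 and 39.4 TPM in frog 1 and from 30.9, 33.2 and 34.5 to 21.3, 23.1 and 27.4 TPM in frog 2. These falls were less stable than the rise of *dll1.L*: *nrarp.S* and *lfng.L* were each called in 5 of 8 alternatives in each frog. The treated pools of both genes lay below wild type in both frogs at 7.5 hpf. This did not hold in both frogs for all injected pools of either gene. Over all members, 4 rose and 9 fell in frog 1 at 7.5 hpf and 2 rose and 4 fell in frog 2, against 3.67% and 1.51% of all genes in frog 1 and 2.58% and 1.43% in frog 2. On the deposited scale 2 rose and 9 fell in frog 1, against 2.72% and 1.47% of all genes. At 6.5 hpf the split was 2 and 10 in frog 1, and 2 and 2 in frog 2, against 1.59% and 0.501% of all genes in frog 1 and 0.656% and 0.113% in frog 2. On the deposited scale it became 2 and 20 in frog 1, where 1.66% of all genes rose and 16.8% fell. Fitted on the libraries of the contrast alone, the calls in both frogs went from 4 to 0 at 6.5 hpf and from 5 to 1 at 7.5 hpf, and leaving out 1 pool number at a time kept 2 to 4 and 2 to 5.

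**Figure D3:**
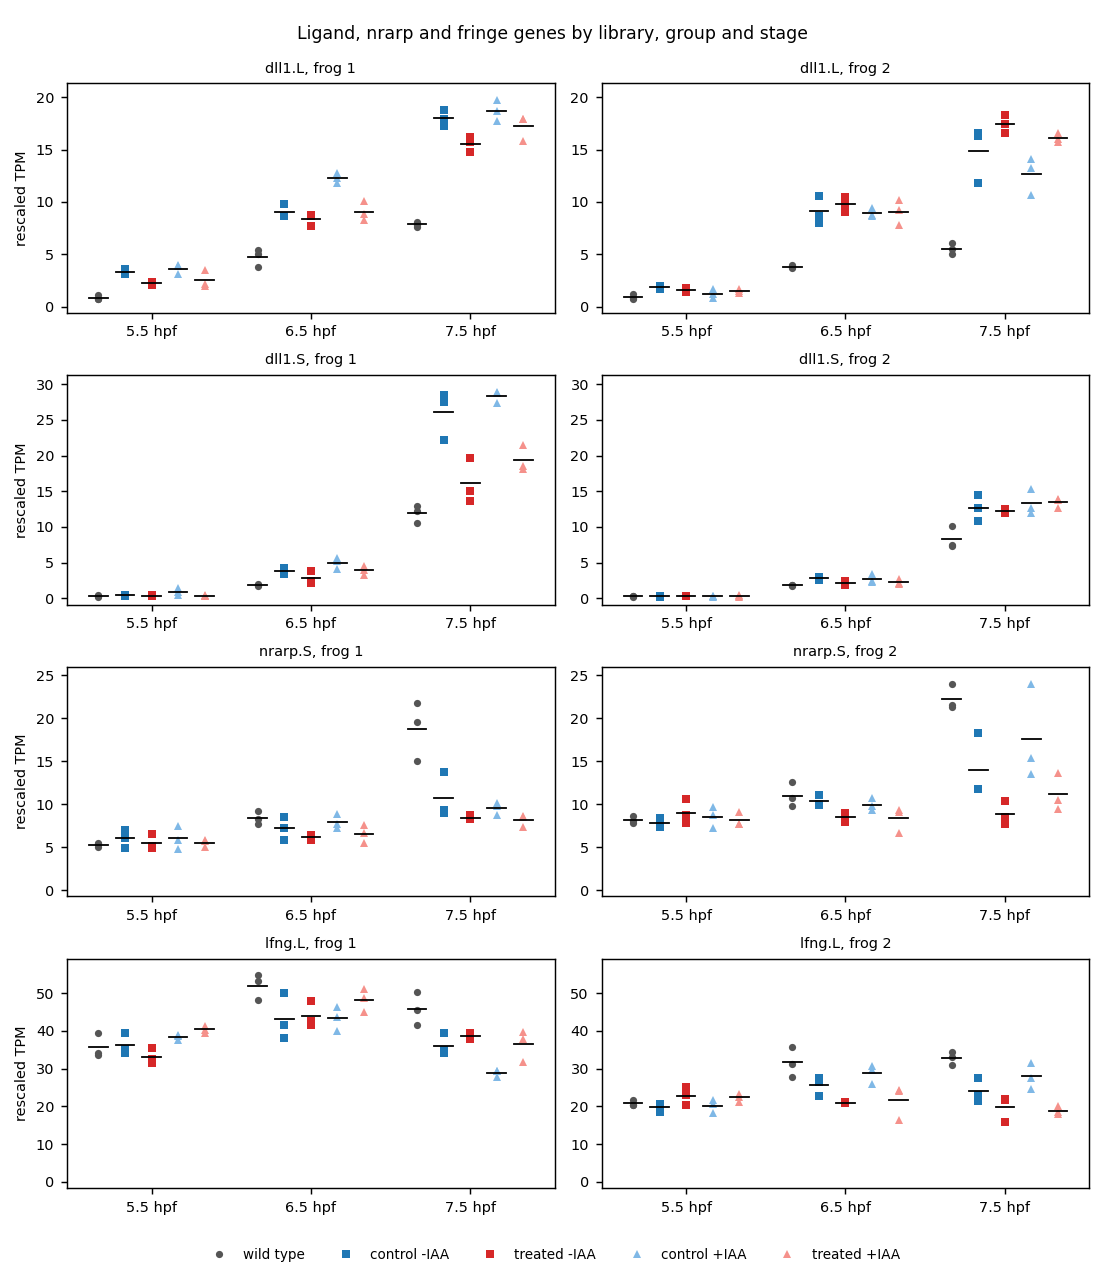
Rescaled TPM of *dll1.L*, *dll1.S*, *nrarp.S* and *lfng.L* in every library of both frogs, by stage and group, with 1 point per pool and a bar at the mean of 3 pools. At 7.5 hpf both *dll1* copies were higher in all injected groups than in wild type, while *nrarp.S* and *lfng.L* were lower in control -IAA embryos than in wild type.

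The *hes7* genes were low in injected embryos at 6.5 hpf, and for *hes7.1.L* the frogs differed in which injected groups were low. At 6.5 hpf in frog 1, *hes7.1.L* was at 41.4, 44.4 and 47.9 TPM in wild type but between 8.55 and 11.6 TPM in control -IAA and between 6.36 and 11.2 TPM in treated -IAA embryos. In frog 2, control -IAA embryos held 49.8 to 75.9 TPM, which overlapped with 60.9 to 89.1 TPM in wild type, and treated -IAA embryos held 16.2 to 18.4 TPM. The log2 change from wild type to control was thus -2.03 ± 0.24 in frog 1 and -0.20 ± 0.30 in frog 2, and from control to treated -0.29 ± 0.24 and -1.83 ± 0.30. The difference between the frogs was not tested. In both frogs, the 6 treated pools of *hes7.1.L*, *hes7.1.S*, *hes7.2.L* and *hes7.2.S* lay below the 3 wild type pools at 6.5 and at 7.5 hpf. Over all members this held for 14 at 6.5 hpf and 12 at 7.5 hpf, of which 12 and 10 were *hes* genes, against 1.29% and 3.12% of all genes. These are separations of pools from wild type, which combine injection and depletion. In frog 1 *hes7.1.S* was at 2.97 to 3.81 TPM in wild type and at most 0.336 TPM in the 12 injected pools at 6.5 hpf, and in frog 2 at 6.55 to 8.54 TPM in wild type, 2.46 to 5.70 TPM in control -IAA and at most 0.723 TPM in the 6 treated pools.

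**Figure D4:**
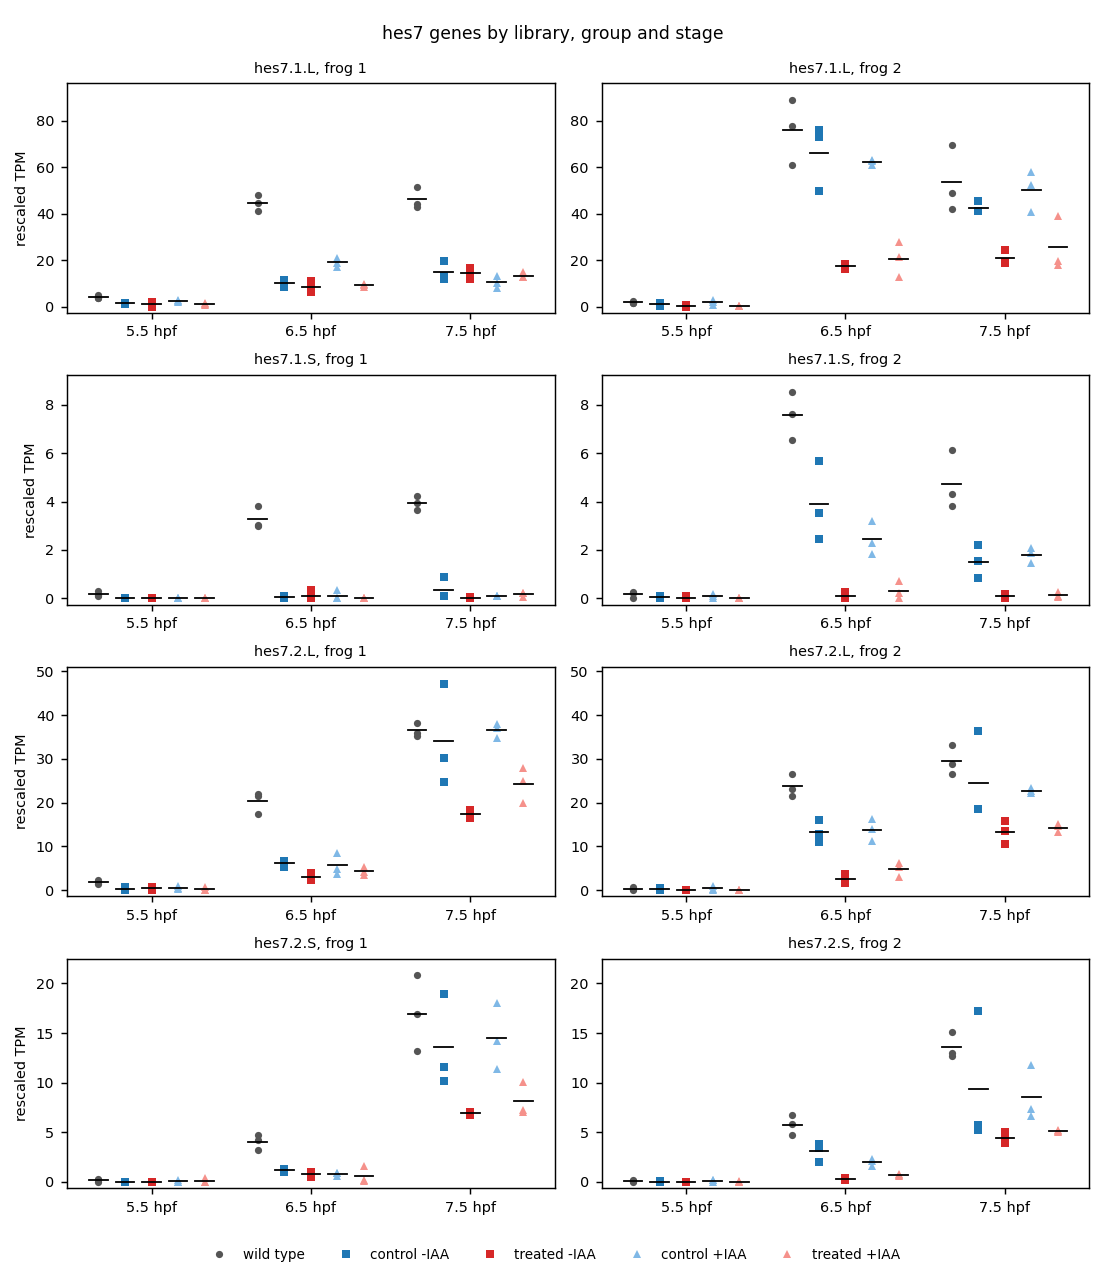
Rescaled TPM of the 4 *hes7* genes in every library of both frogs, by stage and group, with 1 point per pool and a bar at the mean of 3 pools. At 6.5 hpf all injected groups of frog 1 held at most 21.0 TPM of *hes7.1.L*, whereas in frog 2 both control groups stayed near wild type and both treated groups were lower.

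Depletion was compared as treated against control, with auxin (window, meant to end before ZGA) or without it (persistent). At 6.5 hpf in frog 2, 10 of the 24 tested *hes* and *hey* genes fell in window depletion and 15 in persistent depletion, while in frog 1 this held for 1 and 0 of 25. Window depletion lowered 11 members in frog 2 and 1 in frog 1, persistent depletion lowered 16 and 0, and in these 4 comparisons 0 members rose. The shares over all genes that fell were 1.18% and 0.260% for the window and 1.46% and 0.154% for persistent depletion, in frogs 2 and 1. The shares that rose were 0.108% and 0.0530%, and 0.0636% and 0.00482%. The median log2 change of the *hes* and *hey* genes was -0.47 in frog 2 and -0.14 in frog 1 for the window, and -0.78 and -0.20 for persistent depletion, against medians between -0.01 and 0.00 over all genes. In frog 2, 23 of the 24 tested *hes* and *hey* genes were below 0 in persistent depletion. The difference between the frogs was not tested. In frog 2 the counts over all members rest partly on single pools. Without pool 1 they became 4 and 7, and on the libraries of the contrast alone 2 and 7. Most *hes* and *hey* genes rose in wild type over the stages sampled (20 of 22 tested in both frogs), against 14.0% of all genes. The paper found genes expressed at ZGA to be prominent among those lowered by depletion. Whether *hes* and *hey* genes fell more often than other rising genes was not tested, here or at the later stage below.

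At 6.5 hpf in frog 2, *hes7.2.L* was at 11.0 to 16.1 TPM in control -IAA and 1.61 to 3.58 TPM in treated -IAA embryos (log2 change -2.05 ± 0.24, adjusted p = 4.6e-07, limma, called in all 8 alternatives). In frog 1 it was not called. Its treated -IAA pools lay below the control -IAA pools there too, as they did for 5.65% of all genes. In frog 2 *hes1.L* was at 7.33, 7.99 and 10.5 TPM in control -IAA and 3.18, 3.55 and 3.65 TPM in treated -IAA embryos, and at 8.15, 8.78 and 8.98 against 2.92, 4.03 and 4.10 TPM with auxin. It fell by 1.096 and 1.05 on the log2 scale. It too was called in all 8 alternatives of both comparisons. In frog 1 *hes1.L* had changes of -0.23 ± 0.19 and -0.30 ± 0.19 and its pools overlapped. The ligand *dlc.L* was at 1.44, 1.54 and 1.66 TPM in control +IAA and 0.407, 0.437 and 0.507 TPM in treated +IAA embryos of frog 2, and its pools overlapped in frog 1. The receptors, ubiquitin ligases and nuclear factors had 0 calls in either frog at 6.5 hpf in both kinds of depletion, with medians between -0.15 and 0.05.

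*hes4.L* was the member that fell in both frogs in the window comparison at 6.5 hpf, where 0.132% of all genes did so. It was at 4.53, 4.76 and 8.00 TPM in control +IAA and 1.88, 2.37 and 3.25 TPM in treated +IAA embryos of frog 1, and at 5.23, 6.24 and 7.24 against 2.62, 3.62 and 4.65 TPM in frog 2. The pools did not overlap in either frog, and the log2 change was -0.93 ± 0.21 and -0.66 ± 0.17 (adjusted p = 0.036 and 0.037, limma). The call did not outlast small changes of the fit: without pool 3 the adjusted p was 0.63 in frog 1 and 0.47 in frog 2, and it was called in 2 of 8 alternatives in each frog. In persistent depletion at 6.5 hpf, 0 members were called in both frogs, where 0.112% of all genes fell, and 4 had an unadjusted p under 0.05 in the same direction in both (limma).

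At 7.5 hpf the depletion comparisons gave calls in both frogs for other *hes* genes. Window depletion lowered *hes5.10.L*, where 0.524% of all genes fell in both frogs. It was at 1.66, 1.89 and 3.44 TPM in control +IAA and 0.705, 1.06 and 1.25 TPM in treated +IAA embryos of frog 1 (log2 change -0.70 ± 0.17, adjusted p = 0.025, limma), and at 1.83, 2.82 and 3.46 against 0.942, 1.09 and 1.83 TPM in frog 2 (-0.69 ± 0.14, adjusted p = 0.0020), where the highest treated pool was level with the lowest control pool and the groups overlapped. Without pool 3 the change of *hes5.10.L* in frog 1 was -0.37 (adjusted p = 0.77, limma) and without pool 2 that in frog 2 was -0.49 (adjusted p = 0.40), and the call in frog 1 was also lost without pool 1, on the deposited scale and with a pseudocount of 0.1, and in both frogs on the libraries of the contrast alone. Persistent depletion lowered *hes7.2.L* and *hes7.2.S*, where 1.00% of all genes fell in both frogs. *hes7.2.L* was at 24.7, 30.3 and 47.2 TPM in control -IAA and 16.5, 17.5 and 18.3 TPM in treated -IAA embryos of frog 1, and at 18.6, 18.6 and 36.4 against 10.7, 13.6 and 15.8 TPM in frog 2. *hes7.2.S* was at 10.2, 11.6 and 18.9 against 6.79, 6.91 and 7.02 TPM in frog 1, and at 5.25, 5.75 and 17.2 against 3.93, 4.38 and 5.00 TPM in frog 2. In each frog pool 3 of the control group was the high one, and the pools of the groups did not overlap. The changes of *hes7.2.L* were -0.87 ± 0.24 and -0.78 ± 0.24 (adjusted p = 0.0497 and 0.0423, limma) and without pool 3 they were -0.62 and -0.48 (adjusted p = 0.59 and 0.33). Leaving out any pool number left 0 members called in both frogs in persistent depletion.

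Separation of the pools at 7.5 hpf was wider than the calls in both frogs. In persistent depletion, all treated pools lay below all control pools in both frogs for 10 members, against 2.78% of all genes, and 0 lay above, against 1.69%. These were both copies of *hes6.1*, *hes7.2* and *notch1*, with *hes7.1.S*, *jag1.L*, *mib2.L* and *nrarp.S*. Both copies of *hes7.2* were called in each frog, both copies of *notch1* in frog 1 alone, both copies of *hes6.1*, *hes7.1.S* and *nrarp.S* in frog 2 alone, and *jag1.L* and *mib2.L* in neither. *hes6.1.S* was at 3.05, 3.30 and 5.64 TPM in control -IAA and 2.09, 2.34 and 2.62 TPM in treated -IAA embryos of frog 1, and at 4.70, 5.71 and 11.1 against 2.16, 2.45 and 3.72 TPM in frog 2. Its log2 change was -0.54 ± 0.20 in frog 1 (adjusted p = 0.21) and -1.06 ± 0.21 in frog 2 (adjusted p = 0.0012, limma). *notch1.S* was at 37.4, 38.2 and 38.6 against 30.2, 30.6 and 32.2 TPM in frog 1, a fall of 0.29 ± 0.04 (adjusted p = 0.00016), and at 33.5, 33.5 and 33.6 against 28.1, 30.8 and 32.9 TPM in frog 2, with a change of -0.13 ± 0.06 (adjusted p = 0.18). In frog 1 control injection had itself raised *notch1.S* at this stage (log2 change 0.25, adjusted p = 0.00011, limma). Wild type embryos of frog 1 averaged 31.9 TPM, so the fall there was from a raised control to near the wild type level. In window depletion, 7 members lay below in both frogs, against 2.37% of all genes, and 0 above, against 1.78%. They were both copies of *hes6.1* and *hes7.2*, with *hes1.L*, *hes4.L* and *hes5.10.S*.

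Counted per frog, window depletion at 7.5 hpf lowered 10 members in frog 2, and in frog 1 it lowered 2 and raised 1. Persistent depletion lowered 11 in frog 2 and 6 in frog 1. The shares of all genes that fell were 3.27% and 1.14% in the window and 4.06% and 1.45% in persistent depletion, for frogs 2 and 1, and those that rose were 3.48% and 0.632%, and 3.14% and 0.550%. In frog 1 the window gave 0 calls without pool 1, without pool 3 and on the deposited scale. In frog 2 the window count was 0 without pool 2, and the persistent count was 2 without pool 2 or without pool 3, and on the deposited scale the persistent split was 5 higher and 4 lower, where 13.0% and 2.19% of all genes were. Fitted on the libraries of the contrast alone, persistent depletion gave 0 calls in either frog. In frog 1 the 6 members of persistent depletion included the ligands *dll1.S* and *dlc.L* and both copies of *notch1*, and this count was 1 without pool 3. *dll1.S* was at 22.2, 27.4 and 28.5 TPM in control -IAA and 13.6, 15.1 and 19.7 TPM in treated -IAA embryos of frog 1 (log2 change -0.67 ± 0.15, adjusted p = 0.0083, limma). In frog 2 it was at 10.8, 12.7 and 14.5 against 12.0, 12.4 and 12.5 TPM, and the pools overlapped.

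**Figure D5:**
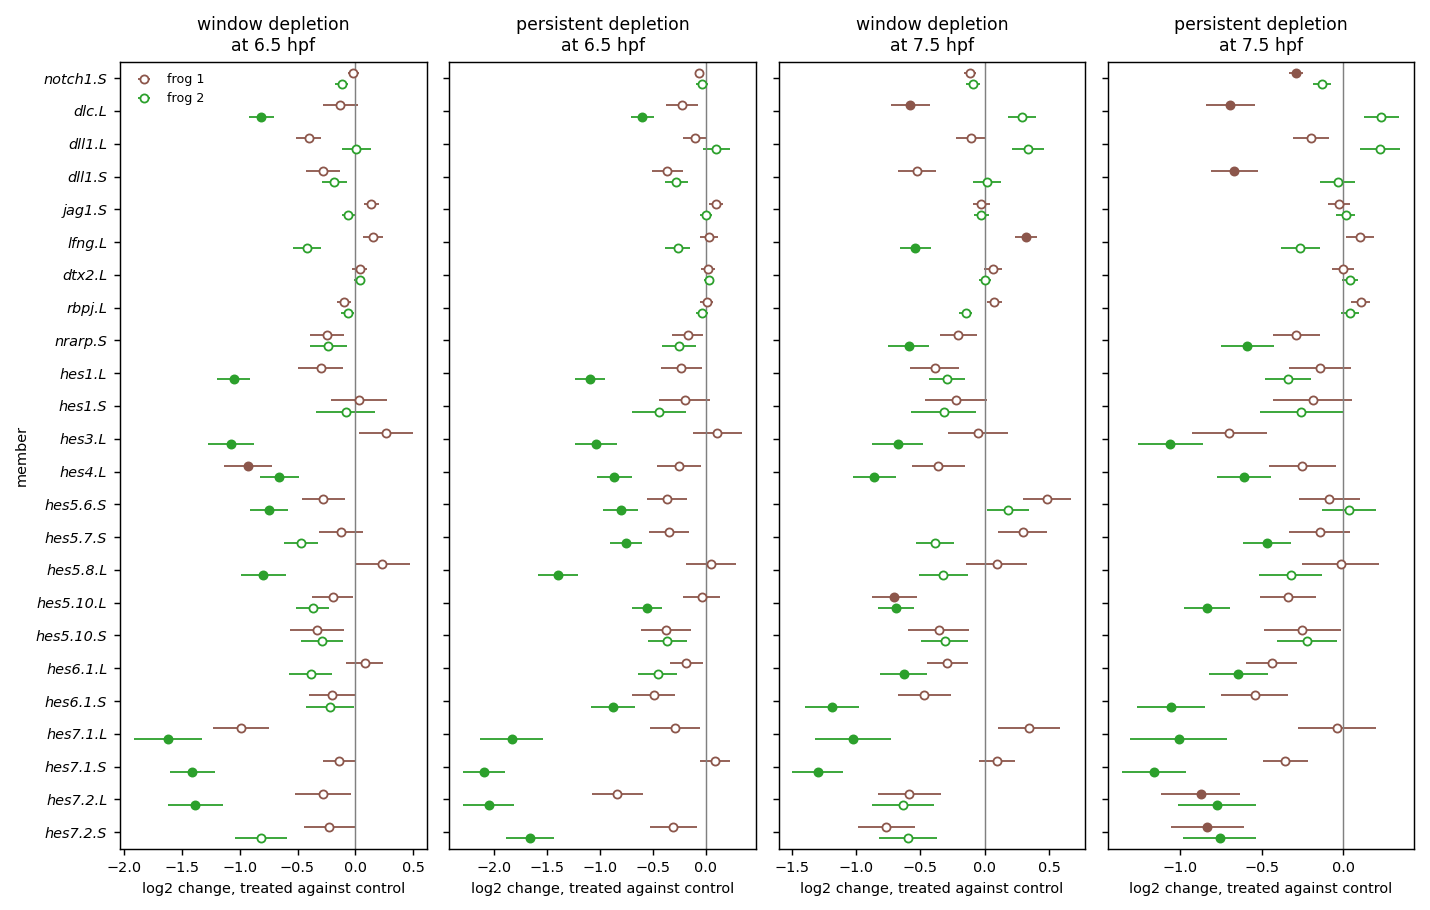
Log2 change (treated against control, on the rescaled TPM + 1 scale) of the 24 named members in window and persistent depletion at 6.5 and 7.5 hpf, with 1 point per frog, bars of 1 standard error from limma and filled points where the adjusted p was under 0.05. In frog 2, the *hes7* genes lie between -0.8 and -2.1 at 6.5 hpf, while *rbpj.L*, *dtx2.L* and *jag1.S* lie near 0 in both frogs.

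Other measures moved with these comparisons. The summed level of the 11 early zygotic markers at 6.5 hpf was 168 TPM in control -IAA and 106 TPM in treated -IAA embryos of frog 1 and 143 and 75.9 TPM in frog 2, against 128 and 130 TPM in wild type. All 11 were at 1 TPM or more in each of these groups. *hbg1.L*, the measure of injected mRNA, averaged 14338 TPM in control and 22265 TPM in treated embryos of frog 1 at 6.5 hpf, and 5305 and 9991 TPM in frog 2. Their part in the lower *hes* levels was not tested.

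Window and persistent depletion were also compared with each other. The difference of the 2 effects was called by limma for 0 members at any stage in either frog, and for at most 0.00964% of all genes. At an unadjusted p under 0.05 it held for 5, 6 and 6 members in frog 1 and 1, 7 and 6 in frog 2, and for 0 in the same direction in both. Auxin alone, as control +IAA against control -IAA, called 0 members in both frogs at any stage, as it did 0% of all genes, and at an unadjusted p under 0.05 it moved 1, 0 and 0 members the same way in both frogs. On the deposited scale auxin alone raised 18 members at 5.5 hpf and 16 at 6.5 hpf in frog 1, against 0 on the rescaled values. On that scale 38.7% and 21.9% of all genes were called higher in these comparisons. In frog 2 it raised *notch3.L* at 6.5 hpf by 0.28 (adjusted p = 0.022, limma), where 98 of 20428 genes rose, and this call was lost without any 1 of the pool numbers, on the deposited scale and on the libraries of the contrast alone. At 5.5 hpf, 28 of the 38 *hes* and *hey* genes were under 1 TPM in wild type of both frogs. Window depletion called *hes5.8.L* in frog 1 at this stage (log2 change -1.07, adjusted p = 0.034, limma), where 0.241% of all genes fell. It was called in 4 of 8 alternatives. In frog 1 at 5.5 hpf the early zygotic markers summed to 30.9 TPM in control +IAA, 12.1 TPM in treated +IAA and 17.7 TPM in wild type embryos. The part of this high control in the call was not tested. Persistent depletion called 0 members in either frog (3 and 1 at an unadjusted p under 0.05, limma). Neither kind of depletion called a member in both frogs, so the count was 0. The treated pools of *hes7.1.L*, *hes3.L* and *hes5.8.L* lay below wild type in both frogs at 5.5 hpf, and those of *dll1.L* above, against 0.183% and 0.234% of all genes. This comparison combines injection and depletion. The control -IAA pools of *hes3.L* also lay below wild type in both frogs, and those of *dll1.L* above, against 0.392% and 0.783% of all genes. Wild type levels were low, averaging 0.915 and 0.512 TPM for *hes3.L* and 1.36 and 0.731 TPM for *hes5.8.L* in frogs 1 and 2.

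Further genes of the pathway, such as the proteases that cut Notch, the Numb relative *numbl.L*, and the corepressors of Hes and Rbpj proteins, were taken as a list of 59 entries, of which 50 were tested in frog 1 and 49 in frog 2. From 5.5 to 7.5 hpf in wild type, 8 rose and 3 fell of 49 tested in both frogs, beside 14.0% and 13.1% of all genes, among the risers *adam10.S*, *adam17.S* and *hdac1.L*. Their median log2 change was 0.06 and 0.03. Window depletion called 0 of them in both frogs at any stage. In persistent depletion at 7.5 hpf, *numbl.L* rose and *neurl1b.L* fell in both frogs, where 0.300% and 1.00% of all genes did. Control injection raised *dlk2.S* and *fbxw7.L* in both frogs at 7.5 hpf, where 1.81% of all genes rose. These genes are named for their calls, after their values were seen.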

How the data were processed

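RNA was measured by rRNA-depleted, directional paired-read libraries of pooled embryos. The authors quantified reads with kallisto 0.48 on Xenbase v10.1 transcripts, summed isoforms to genes with tximport and deposited TPM, 1 table per frog, and they tested each frog alone with DESeq2 1.42.1 in R 4.3.2. The strand setting of kallisto is not given in the sources used here. TPM keep no read counts, so no depth or counting interval can be given.

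Values were added up for names carried by several entries (83 names for 2269 entries in frog 1, 82 for 2204 in frog 2), and 806 entries without a name in frog 2, at most 0.0744% of the TPM, were left out. The share of ribosomal RNA differed between libraries, and the deposited TPM were rescaled within each frog by the median ratio, using genes that averaged 10 TPM or more (11364 and 11172 genes, factors 0.659 to 1.40 and 0.661 to 1.38). The filter retained genes that reached 1 rescaled TPM in 3 or more libraries (20744 and 20428, of which 19658 in both), and log2(TPM + 1), which understates the change of low genes, was fitted per frog with limma 3.58.1 (R 4.3.3; 15 group means, trended variance). P-values were adjusted by the Benjamini-Hochberg method over all genes of a contrast, with a threshold of 0.05. The fit was tested on simulated data. All 81 entries matched the Xenopus_laevis_v10.1 annotation of RefSeq.

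Members with values in every pool were those called in both frogs in a depletion or injection contrast, those that rose by at least 1 in both frogs in wild type, and the most abundant of each role. Other names were picked with the values in view. The members, roles and lists were chosen with earlier results of these data known. Alternatives were TPM as deposited, a pseudocount of 0.1, no filter, the libraries of the contrast alone, the pool number as a block, and leaving out each pool number in turn.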

Additional observations from a re-analysis of the deposited data

Results flagged for a closer look

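Under the same contrast, all pools of one frog lay on one side of the comparison group and all pools of the other frog on the opposite side for 6 results. The difference between the frogs was not tested in any of them, and groups of 3 pools are too small for a test of outlying pools. Each contrast had 45 members tested in both frogs. The share of all genes with opposite sides was not computed, so the count is no result about the members. Separation within 1 frog was common. In window depletion at 7.5 hpf, 9.22% of all genes lay below and 8.59% above in frog 1, and 11.0% and 11.6% in frog 2. In window depletion at 7.5 hpf the log2 change of *lfng.L*, a fringe glycosyltransferase, was 0.32 in frog 1 and -0.54 in frog 2, and that of *hes5.5.S* was 0.19 and -0.39. Auxin alone gave 0.33 and -0.23 for *hes4.S* at 6.5 hpf, and -0.22 and 0.32 for *lfng.S* at 7.5 hpf. Control injection gave -0.10 and 0.14 for *dtx2.S* at 5.5 hpf, and 0.070 and -0.11 for *mib1.L* at 7.5 hpf.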

How the results depend on the processing

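In wild type, the members called in both frogs in either direction numbered 19 (6.5 against 5.5 hpf), 32 (7.5 against 5.5 hpf) and 17 (7.5 against 6.5 hpf), and 18 to 19, 28 to 30 and 14 to 16 when a pool number was left out. Under the other alternatives they were 17 to 22, 23 to 41 and 14 to 19, and on TPM as deposited the split per frog moved, from 18 higher and 7 lower to 12 and 25 in frog 2 (7.5 against 6.5 hpf). Window depletion at 6.5 hpf (1 member) gave 0 on TPM as deposited, with the libraries of the contrast alone, without the filter and with a pseudocount of 0.1, and 0 to 1 without single pool numbers. Window depletion at 7.5 hpf (1 member) gave 0 on TPM as deposited, with the contrast alone and with a pseudocount of 0.1, and 0 to 1 without single pool numbers. Persistent depletion at 7.5 hpf (2 members) gave 0 on TPM as deposited, with the contrast alone, without the filter, with a pseudocount of 0.1 and without any single pool number. Control injection gave 1 in place of 0 at 5.5 hpf with a pseudocount of 0.1, 0 (contrast alone), 1 (pseudocount of 0.1) and 2 to 4 (single pool numbers) in place of 4 at 6.5 hpf, and 1 (contrast alone) and 2 to 5 (single pool numbers, 3 without pool 1 of frog 1) in place of 5 at 7.5 hpf. The cause of these shifts was not tested, except that the contrast alone and the left-out pools use fewer libraries.

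Changes that reversed did so on TPM as deposited. In wild type from 5.5 to 7.5 hpf these were *jag1.S* in frog 1 (0.17), *lfng.L* in frog 2 (-0.15) and *notch1.S* in frog 2 (-0.53), and from 6.5 to 7.5 hpf *dtx2.L* (-0.27) and *notch1.S* (-0.070) in frog 2. Deviations of pools that share a number correlated by -0.14 to 0.0954 over 108 pairs, so the numbers were not taken to pair the pools. The pairs of window depletion are counted again among the 108, under the difference of window and persistent effects. With the pool number as replicate block, the count of window depletion at 6.5 hpf became 2 and that of persistent depletion at 7.5 hpf became 1.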
